A study of Mus musculus with 22 samples.

Results

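Transcription factor genes known to set the fate or state of astrocytes were followed through 22 single mouse astrocytes. The 10 genes (Sox9, Sox2, Nfia, Nfib, Nfix, Zeb1, Zbtb20, Pax6, Rorb and Lhx2) were taken by symbol from the 23453 genes of the deposited count table. All 10 were in the table, and all 10 were among the 12719 genes detected in 5 or more cells. The cells came from primary cortical cultures, each made from a single newborn (P0-P1) C57BL/6 pup, shaken and given cytosine arabinoside to deplete other cell types. Every cell, non-responders included, was imaged with the calcium dye Fluo-4 during acute ethanol (EtOH), then with ATP, and was aspirated with a micropipette once its calcium response had been classed. The study collected cells at an early and a later time after ethanol, and since the labels do not tell which cell belongs to which, a response type may mix both times. S-type cells (n = 6) gave a slow, sustained rise, T-type cells (n = 6) a sharp transient, M-type cells (n = 5) a mixed response, and NR cells (n = 5) did not respond. No untreated cells are among the groups. The labels name neither the pup nor the culture of a cell, so the cells of a response type stand for 1 sample, no test between types was made and no p-value is given.

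Transcription factors of the SOX, nuclear factor I (NFI), zinc finger, homeobox and nuclear receptor families act in sequence as neural stem cells of the cortex change from making neurons to making astrocytes. SOX9 prepares this change and induces NFIA, and the 2 proteins then act together on astrocyte genes. Several of the same factors (SOX2, PAX6, LHX2) are known first from neural stem cells, and remain detectable in cultured astrocytes, which keep features of immature glia. An mRNA count says nothing of the protein or of its binding to DNA.

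Values are normalized counts, the reads of a gene in a cell divided by that cell's size factor (a scaling factor from the median ratio of its genes to their geometric mean over cells). The level of a response type is the mean over its cells, differences are log2 ratios of 2 levels, and the 95% interval beside a ratio covers the counting of reads only, not the spread between cells. Each cell had 2937786 to 22131076 reads in genes, of which 0.162% to 0.896% fell in the 10 genes. One library stood apart, the T-type cell called T2 here. It had 12564138 reads but the fewest genes with a read (6319), 12.95% of its reads in its top 10 genes, and a size factor of 0.276, so that its normalized counts summed to 45565225 against 9561152 to 21895269 in the other cells. A second T-type cell, T3, had the fewest reads and the lowest size factor (0.183). Ratios of the 10 genes in T-type cells are therefore given with and without T2, a choice made after the values were seen, and those past 2-fold also as ratios of mean CPM (reads scaled to a library of 1000000). All 12 astrocyte markers looked for had reads, and 8 of them (Slc1a3, Aqp4, Glul and Gfap among them) were read in every cell. The others were Aldoc (read in 21 cells), S100b (16), Ntsr2 (5) and Gjb6 (2). Sox10, which defines oligodendrocyte lineage cells, had no read in any cell.

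Per kilobase of exon, Sox2 had the highest median over the 22 cells, 2246 normalized counts, and it exceeded Sox9 in 19 of the 22 cells. Sox9, Lhx2 and Nfib followed with medians of 916, 866 and 779 per kilobase, and their order was not kept from cell to cell, since Sox9 was above Lhx2 in 10 cells and Lhx2 above Nfib in 11. Nfib was above Nfia (median 229 per kilobase) in 18 cells. Pax6 (150.7), Zbtb20 (81.1) and Zeb1 (70.5) came next, each above its successor in 13 to 17 cells, and Nfix (36.0) and Rorb (29.7) were lowest, with Nfix above Rorb in 11 cells. All the genes but Rorb had a read in all 22 cells, and Rorb had one in 21.

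**Figure D1:**
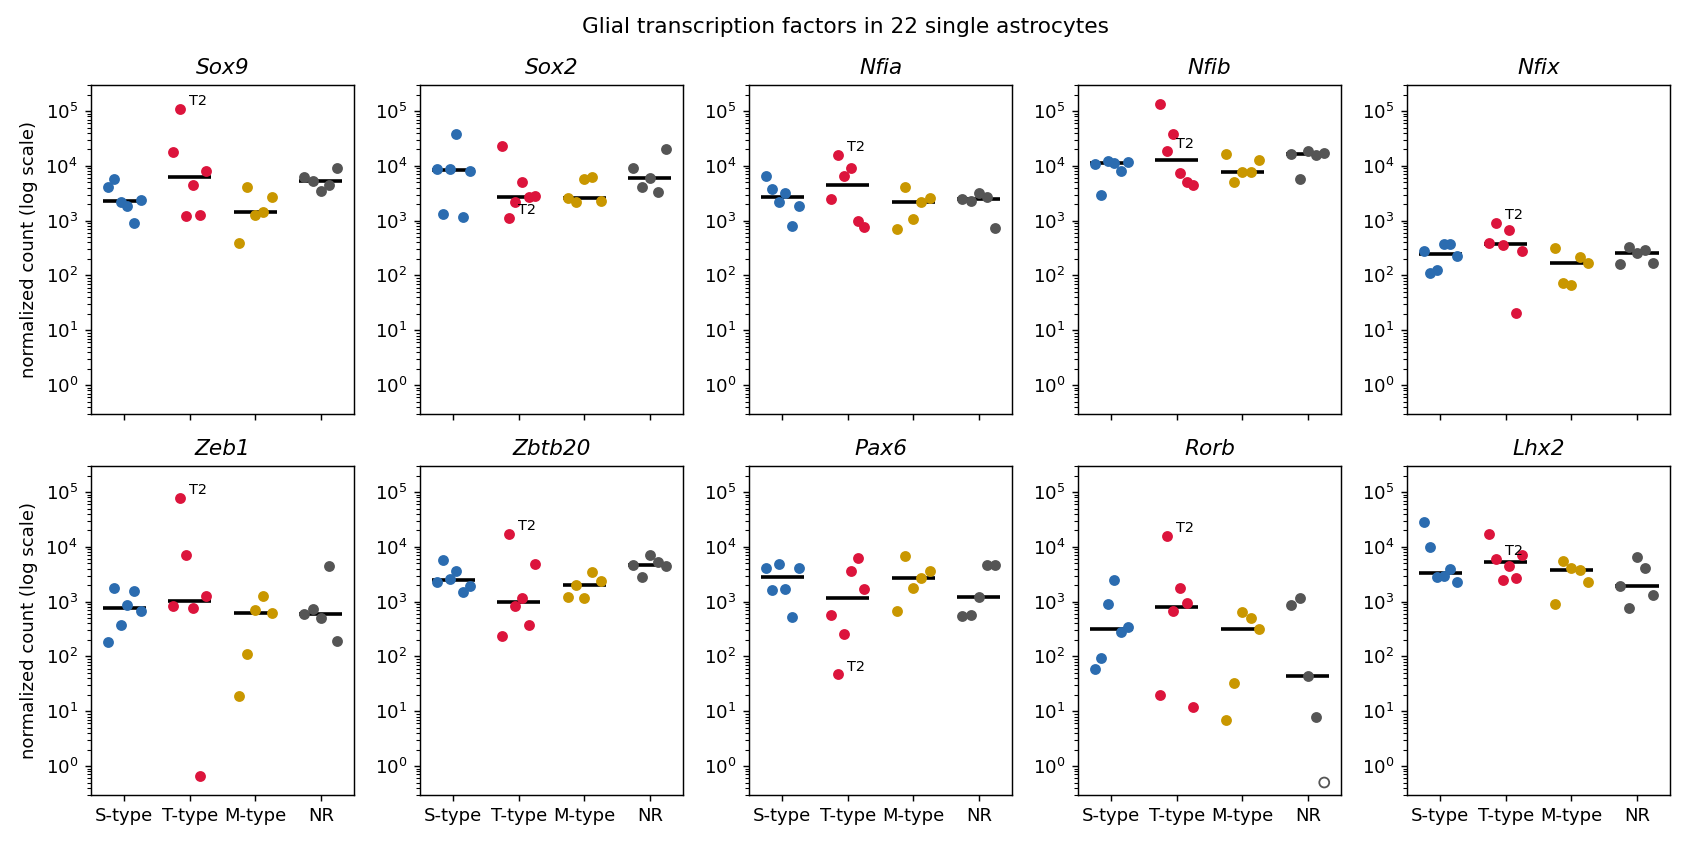
Normalized count of each of the 10 genes (y axis, log scale) in every cell, by response type (x axis; S-type and T-type n = 6, M-type and NR n = 5), with a black line at the median over cells. The cell T2 is labelled and is the highest of 22 for 6 genes and the lowest for Sox2 and Pax6, the open circle marks the cell with no Rorb read, and the points of the types overlap in every panel.

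The types were compared first by counting genes past 2-fold. In T-type cells 4 of the 10 genes had a level at least 2-fold above that of S-type cells (Sox9, Nfib, Zeb1 and Rorb) and none was 2-fold below. Among all 12719 genes 26.0% were 2-fold higher and 32.2% 2-fold lower in this contrast, and among the 8497 genes with a mean normalized count of at least 100, as all 10 have, the shares were 26.4% and 24.7%. By mean CPM 3 were higher (Sox9, Nfib and Zeb1) and 1 lower (Sox2). Against NR cells 6 of the 10 were 2-fold higher in T-type cells (Sox9, Nfia, Nfib, Zeb1, Rorb and Lhx2) and none lower, with shares of 28.6% higher and 32.4% lower among all genes and 29.6% and 25.0% among those of at least 100. By mean CPM, and likewise after thinning every cell to the smallest library, the counts against NR were 2 higher (Zeb1 and Rorb) and 1 lower (Zbtb20). Only Lhx2 was 2-fold higher in S-type than in NR cells and none was lower (25.1% and 22.4% of all genes, 20.9% and 18.1% at 100 or more). In M-type cells 4 were 2-fold below NR (Sox9, Sox2, Zeb1 and Zbtb20) and none above, against 28.1% lower and 19.8% higher among all genes and 22.1% and 15.9% at 100 or more, and by mean CPM or thinning the 4 became 3, without Sox2. No contrast is independent of the rest, since the last 3 share the NR cells and the first shares its cells with the next 2.

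The cells of 2 types never separated completely for any of the 10 genes, in these 4 contrasts or in any other pair of types. Such a separation was itself uncommon among genes of at least 100 normalized counts, at 0.871% between T-type and S-type cells, 0.93% between T-type and NR cells, 0.412% between S-type and NR cells and 0.671% between M-type and NR cells. The median log2 ratio over the 10 genes was 0.90 between T-type and S-type cells and 1.22 between T-type and NR cells, beside −0.07 and −0.05 over all genes tested. By mean CPM the medians over all genes moved to −0.44 and −0.45, and relative to these the 10 genes had medians of 0.65 and 0.97, where the corresponding values by size factors were 0.97 and 1.28. All these T-type medians include T2. Without T2 the middle ratios of the 10 genes by size factors were lower. They were those of Rorb (−0.04) and Nfia (0.39) against S-type cells, and of Nfix (0.50) and Zeb1 (0.61) against NR cells. For S-type versus NR the medians were 0.16 over the 10 genes and 0.03 over all genes, and for M-type versus NR −0.54 and −0.20.

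**Figure D2:**
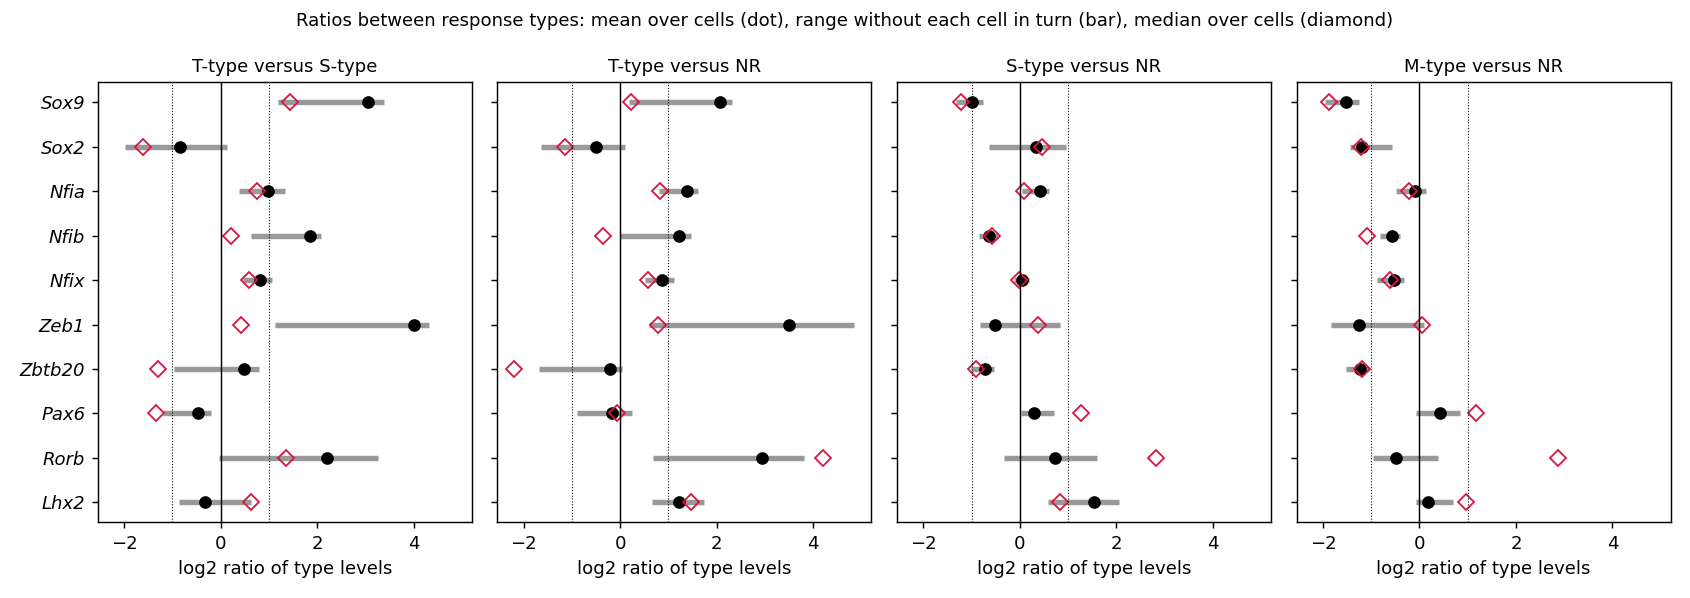
Log2 ratio of levels (x axis) of the 10 genes (y axis) in each of the 4 contrasts, with the ratio of mean levels as a dot, the range of that ratio when each cell is left out in turn as a grey bar, and the ratio of medians over cells as a diamond. Dotted lines mark 2-fold, and the Zeb1 bar for T-type versus S-type reaches from 1.12 to 4.32 while that of Zbtb20 for M-type versus NR stays between −1.52 and −1.05.

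Much of the T-type difference came from single cells. T2 was the highest of the 22 cells for 6 of the 10 genes by normalized count (Sox9, Nfia, Nfix, Zeb1, Zbtb20 and Rorb), as it was for 13.9% of genes of at least 100, and for 3 by CPM (Sox9, Zeb1 and Rorb), beside 5.24% of genes. For Sox2 and Pax6 it was the lowest of the 22 on both scales. Without T2 the genes 2-fold above S-type cells were 3 (Sox9, Nfib and Zeb1; 22.8% of all genes without T2), those 2-fold above NR cells were 2 (Nfib and Lhx2; 25.8%), and Zbtb20 was 2-fold below NR (32.4%).

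**Figure D3:**
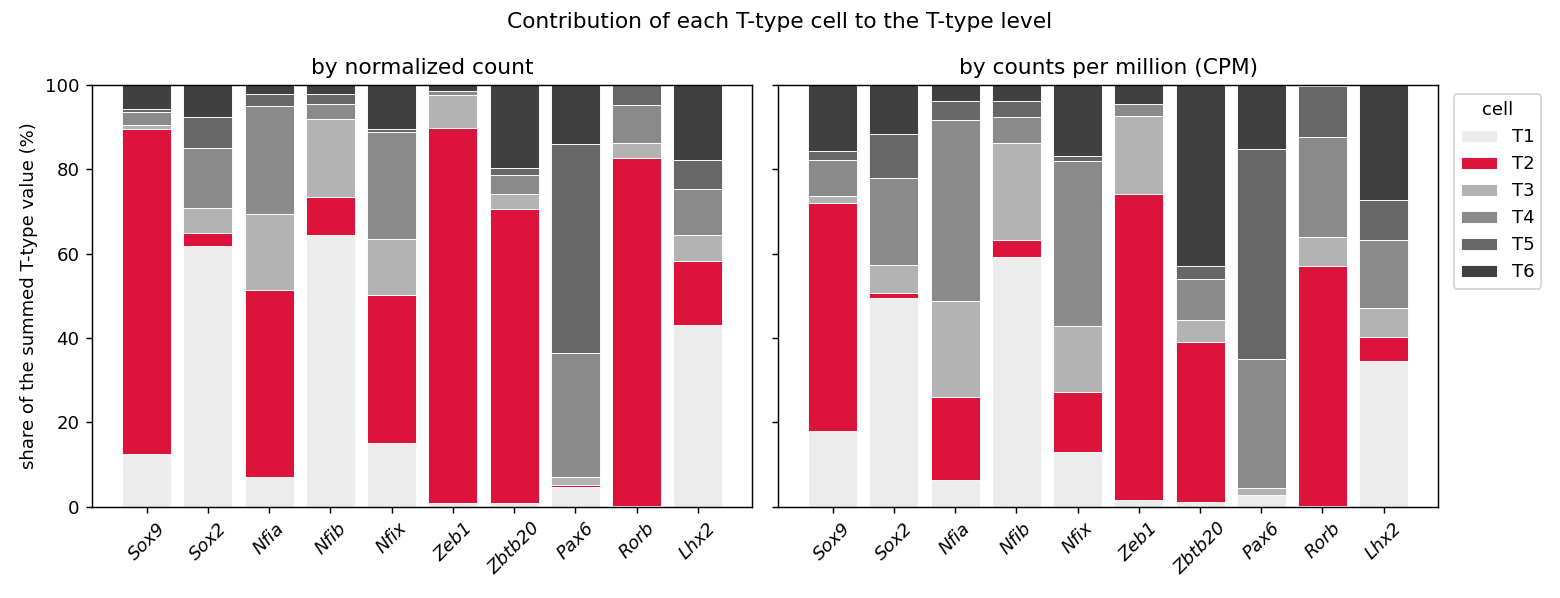
Share of the summed T-type value (y axis, percent) that each of the 6 T-type cells contributes for each gene (x axis), by normalized count (left) and by CPM (right), with T2 in red. T2 gives 77.2% of Sox9, 88.8% of Zeb1 and 82.5% of Rorb by normalized count, and 54.1%, 72.5% and 57.0% by CPM, but 3.10% or less of Sox2 and Pax6 on either scale.

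Sox9 encodes an HMG box factor that neural stem cells need to start making glia and that astrocytes keep expressing (chromosome 11, 112782224 to 112787760, plus strand, GRCm38). Its normalized counts ran from 897 to 5773 in S-type cells (median 2285) and from 1205 to 110147 in T-type cells (median 6231). They were 388, 4075, 1258, 1460.4 and 2752 in M1 to M5 and 6149, 5327, 3503, 4452 and 9056 in NR1 to NR5. Sox9 was therefore lowest in M-type cells, where only M2 lay above the lowest NR cell and all 5 lay below the NR median, and most dispersed in T-type cells, where T3, T4 and T5 fell within the S-type range and T2 stood far above every other cell. The T-type level was 8.29-fold that of S-type cells (log2 3.05, 95% interval 3.03 to 3.08), with a log2 ratio of 1.18 without T2. Against NR cells the T-type log2 ratio was 2.06, and without T2 it was 0.19. By mean CPM these ratios were 1.73 and 0.69. T2 held 30372 Sox9 reads, 2417 CPM, and remained the highest cell for Sox9 on the CPM scale.

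Relative to NR cells, Sox9 was 2.87-fold lower in M-type cells (log2 −1.52, 95% interval −1.55 to −1.49), and the ratio ran from −1.96 without M2 to −1.26 without M1 as each cell was left out. In S-type cells it was 1.99-fold lower (log2 −0.99, 95% interval −1.01 to −0.97), with 4 of the 6 cells below every NR cell and a range of −1.32 without S2 to −0.76 without NR5. Both contrasts had the same sign by CPM, by TMM factors and by medians.

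Sox2 encodes a second HMG box factor, which maintains neural stem cells (chromosome 3, 34650405 to 34652461, plus strand). S-type cells ran from 1161 to 37904 normalized counts (median 8345) and T-type cells from 1132 to 22580.1 (median 2732). The M-type cells had 2600.0, 2178, 5721, 6263 and 2281, and the NR cells 9164, 4073, 6055, 3292 and 20736. S4, T1 and NR5 were each the highest of their type by a wide margin, and the ranges of all types overlapped. The M-type level was 2.27-fold below NR (log2 −1.19, 95% interval −1.20 to −1.17), and the difference was under 2-fold without NR5 (−0.57) and by mean CPM (−0.88). The other Sox2 ratios were under 2-fold and depended on S4, T1 or NR5: T-type versus S-type was −0.85, with −1.97 without T1, 0.12 without S4 and −1.503 by mean CPM, T-type versus NR was −0.51 with −1.63 without T1, and S-type versus NR was 0.34 with −0.63 without S4. Without T2 the T-type ratios were −0.63 against S-type and −0.29 against NR cells.

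The 3 NFI genes encode related factors that bind the same palindromic motif and promote astrocyte genes. Nfia (chromosome 4, 97772734 to 98118874, plus strand) ran from 813 to 6432 in S-type cells (median 2666) and from 773 to 15812 in T-type cells (median 4471). It was at 706, 4122, 1063, 2164 and 2559 in the M-type cells and at 2507, 2249, 3169, 2660.3 and 745 in the NR cells. The types overlapped throughout, with T2, T4 and T3 above every NR cell and T5 and T6 near the bottom of the whole range. The T-type level was 2.62-fold that of NR (log2 1.39, 95% interval 1.36 to 1.42), and without T2 the ratio was 0.81. By CPM the highest Nfia cell was T4 (762 CPM), not T2 (347 CPM), and the T-type versus NR log2 ratio was 0.56. Nfia differed by under 2-fold in the other contrasts (T-type versus S-type 0.97 and 0.39 without T2, S-type versus NR 0.42, M-type versus NR −0.09).

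Nfib was the NFI gene with the highest level (chromosome 4, 82290173 to 82705750, minus strand). Its normalized counts lay between 2944 and 12076 in S-type cells (median 11161) and between 4449 and 133921 in T-type cells (median 13003). They were 16481, 5135, 7849.5, 7853 and 12789 in M-type cells and 16725, 5665, 18679, 15494 and 17340.3 in NR cells. Apart from S2, the S-type cells were close together, as were the NR cells apart from NR2. T1 alone made up 64.5% of the T-type level, with 95144 reads or 6116 CPM. T-type cells were 3.62-fold above S-type cells (log2 1.86, 95% interval 1.84 to 1.87) and 2.34-fold above NR cells (log2 1.23, 95% interval 1.22 to 1.24). Without T1 these ratios were 0.63 and −0.0026, and by medians they were 0.22 and −0.36, so the excess over NR rested on T1. By mean CPM they were 1.03 and 0.50, and without T2 1.98 and 1.36. S-type and M-type cells were below NR by log2 −0.63 and −0.56, under 2-fold, although the M-type ratio by medians was −1.09.

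Nfix had the lowest median normalized count of the 10 genes (chromosome 8, 84699876 to 84800344, minus strand). The median was 251 in S-type cells (112 to 380), 376 in T-type cells (20.7 to 921), 167 in M-type cells (67.0 to 317) and 254 in NR cells (160.3 to 333). T2 was the highest cell by normalized count but at 20.2 CPM was 11th of 22, and T5, with 32 reads, was the lowest of all. No Nfix ratio reached 2-fold, with log2 values of 0.82 against S-type cells (95% interval 0.72 to 0.92) and 0.86 against NR cells for the T-type, 0.04 for S-type versus NR and −0.52 for M-type versus NR. The first 2 were 0.46 and 0.50 without T2.

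Zeb1 encodes a zinc finger E-box repressor best known for shutting off epithelial genes (chromosome 18, 5591860 to 5775467, plus strand). It had the widest range of the genes read in every cell. S-type cells ran from 184.6 to 1767 (median 770.3), and T-type cells from 0.648 in T5, where a single read was counted, to 77874 in T2 (median 1031). M-type cells had 18.8, 109, 706, 1254 and 616, and NR cells 596, 741, 496, 4420 and 195. Outside T2, T3 (6998) and NR4, no cell exceeded the highest S-type cell. The T-type level was 16.2-fold that of S-type cells (log2 4.01, 95% interval 3.97 to 4.05) and 11.3-fold that of NR cells (log2 3.50). Leaving out T2 gave 1.12 and 0.61, and leaving out both T2 and T3 gave −0.36 and −0.87, so neither difference was carried by the other 4 T-type cells. NR4 bore on the second, which was 4.85 without it. By mean CPM the ratios were 2.36 and 1.78. The M-type level was 2.38-fold below NR (log2 −1.25), but 68.5% of the NR level came from NR4, and without that cell the ratio was 0.09. Of 10 epithelial genes that ZEB1 represses (Cdh1, Epcam and Esrp1 among them), 7 had any read and none was read in 5 cells, and their summed normalized counts did not exceed 6.405 in any cell.

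Zbtb20 encodes a BTB zinc finger repressor that promotes astrocyte formation in the cortex (chromosome 16, 42875881 to 43642602, plus strand). Normalized counts ran from 1527 to 5697 in S-type cells (median 2448) and from 241 to 17451 in T-type cells (median 1002). M-type cells had 1227, 2017, 1163, 3539 and 2360 (values in the order M1 to M5), and NR cells 4574, 2862, 7186, 5199 and 4405. NR cells were thus high and close together. Below all of them lay 4 of 5 M-type, 4 of 6 T-type and 4 of 6 S-type cells, the exceptions being M4, T2, T6, S2 and S4. The M-type level was 2.35-fold below NR (log2 −1.23, 95% interval −1.26 to −1.21), with a range from −1.52 without M4 to −1.05 without NR3, so no single cell brought it under 2-fold. T-type cells showed log2 −0.22 against NR, and −1.68 without T2, −1.29 by mean CPM and −2.19 by medians. For T-type versus S-type the sign turned with the scaling, from 0.49 by size factors to −0.53 by CPM, and to −0.97 without T2. S-type versus NR was −0.71 (95% interval −0.74 to −0.69).

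Pax6 encodes a paired box homeodomain factor of cortical radial glia (chromosome 2, 105668900 to 105697364, plus strand). Its cells spread from 514 to 4907 in the S-type (median 2875) and from 47.1 to 6138 in the T-type (median 1144). In M1 to M5 the values were 677, 6735, 1809, 2707 and 3632, and in NR1 to NR5 they were 558, 563, 1199, 4607 and 4667. Low and high cells occurred in every type, and T2, with 13 Pax6 reads, had the lowest value of all. None of the Pax6 ratios of means reached 2-fold (T-type versus S-type −0.46, T-type versus NR −0.17, S-type versus NR 0.28, M-type versus NR 0.42). By medians over cells, which set less weight on NR4 and NR5, S-type and M-type cells were above NR by log2 1.26 and 1.18. Without T2 the T-type ratios were −0.20 against S-type and 0.08 against NR cells.

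Rorb encodes a nuclear receptor of the retinoic acid-related orphan receptor group, known from cortical layer patterning (chromosome 19, 18930605 to 19111196, minus strand). It varied between cells of one type more than between types. Of the 22 cells 9 were below 100 normalized counts, with a highest value of 94.3, and the other 13 lay between 284 and 15953, a limit chosen after the values were seen. The low cells were 2 of 6 S-type, 2 of 6 T-type, 2 of 5 M-type and 3 of 5 NR cells. The M-type cells had 6.88, 32.2, 635, 504 and 319, and the NR cells 862, 1190.0, 43.9, 7.78 and 0, so both types held cells of either kind. No Rorb read was counted in NR5 among 17676402 reads, which allows up to 0.170 CPM (3 reads). T-type cells were 4.64-fold above S-type (log2 2.21, 95% interval 2.16 to 2.27) and 7.66-fold above NR (log2 2.94), with −0.04 and 0.68 without T2 and 0.65 and 1.40 by mean CPM. Leaving out S4 raised the first to 3.26, and leaving out NR2 raised the second to 3.82. The medians of T-type (803), M-type (319) and S-type cells (312) were above that of NR cells (43.9), which falls on one of the low cells.

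Lhx2 encodes a LIM homeodomain factor known first from neural stem cells (chromosome 2, 38339281 to 38369733, plus strand). S-type cells ran from 2265 to 28673 (median 3401) and T-type cells from 2531 to 17510.0 (median 5279.9). M-type cells had 897, 5455, 4136, 3738 and 2261 and NR cells 1918, 774, 6395, 4093 and 1330.3. NR cells included the lowest Lhx2 value of all 22, and T3, the lowest T-type cell, was above 3 of the 5 NR cells. The S-type level was 2.89-fold above NR (log2 1.53, 95% interval 1.51 to 1.56), of which S1 supplied 56.9%, and without S1 the ratio was 0.58. The T-type level was 2.33-fold above NR (log2 1.22, 95% interval 1.20 to 1.25), with 1.25 without T2, 0.67 without T1 and 0.60 by mean CPM. By mean CPM the S-type ratio was 1.31. M-type versus NR was 0.18 and T-type versus S-type −0.31, or −0.28 without T2.

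The 10 genes showed little tendency to move together from cell to cell. Of their 45 pairs, 26 had a Spearman correlation of normalized counts above 0 over the 22 cells, and the median was 0.10. The highest was between Nfix and Zeb1 (0.52), and Nfix with Pax6 (−0.59) was the lowest. These correlations are over cells that share the size factor scaling and unequal depths, and carry no p-value. With the size factor itself the genes correlated between −0.51 (Nfix) and 0.27 (Pax6), and by CPM between −0.35 (Nfia) and 0.37 (Pax6).

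Among 8025 genes detected in 15 or more cells with a mean normalized count of at least 100, the 2 most like each of the 10 by Spearman correlation over the 22 cells were as follows. Sox9 was followed most closely by Fam63b (0.80) and Smim1 (0.79), Sox2 by Ptcd1 (0.75) and Btrc (0.73), and Nfia by Mrpl32 (0.73) and Elmo2 (0.72). For Nfib they were Tcf4 (0.73), a basic helix-loop-helix factor, and Tmem59 (0.71), and for Nfix they were Coro1b (0.73) and Vapb (0.73). Zeb1 had Eda2r (0.77) and Hagh (0.73), Zbtb20 had Tpp1 (0.80) and Ctsb (0.77), and Pax6 had Elp5 (0.77) and Rwdd4a (0.75). Rorb had Tmem100 (0.79) and Rgs9 (0.78), and Lhx2 had Fkbp2 (0.71) and Rbl2 (0.68). The same first gene came out by Pearson correlation of log2 values for Sox9 (0.80), Nfix (0.81) and Rorb (0.81) only. Some of the genes named ranked far lower by Pearson correlation, such as Elp5 for Pax6 (rank 794), Hagh for Zeb1 (218) and Vapb for Nfix (209). All these genes were picked as the highest of 8025 over only 22 cells, so the size of their correlations is no evidence of a link.

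Other genes of the same families were described as lists. Counts of these lists, here and below, stand beside the shares of all 12719 genes past 2-fold. These were 32.2% lower and 26.0% higher in T-type versus S-type cells and 32.4% and 28.6% in T-type versus NR. They were 22.4% and 25.1% in S-type versus NR and 28.1% and 19.8% in M-type versus NR. The lists are small, and their counts are not read as results about a family. Of 11 further SOX genes 10 were read in at least 5 cells, and 4 of these were 2-fold lower and 3 higher in T-type than in S-type cells (median log2 −0.51), 4 lower and 4 higher against NR (median 0.84), 2 and 3 in S-type versus NR (0.12) and 4 and 1 in M-type versus NR (−0.35). Sox6, which acts in glial and neuronal precursors, had levels of 652 in T-type, 1938 in NR, 2238 in M-type and 3027 in S-type cells, the opposite order to Sox9 between S-type and T-type (log2 −2.21), with its highest cell in S2 (11921). Sox21 had levels of 369, 1556, 224 and 769 in the same order, and was, like Sox9, lower in M-type than in NR cells (log2 −2.80). Sox11, a factor of immature neurons, differed by under 2-fold in all 4 contrasts.

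Among 30 tested genes of 35 other neural patterning and glial factors, 9 were 2-fold lower and 8 higher in T-type versus S-type cells, 8 and 8 in T-type versus NR, 6 and 7 in S-type versus NR and 5 and 5 in M-type versus NR. The shares of all genes in the same order were 32.2% and 26.0%, 32.4% and 28.6%, 22.4% and 25.1%, and 28.1% and 19.8%. Meis2 (levels 5344 to 9936) and Tcf4 (5651 to 9505) differed by under 2-fold in all 4 contrasts. Of 13 cofactors and partners, 1 was lower and 3 higher in T-type versus S-type and in T-type versus NR, 2 and 2 in S-type versus NR and 2 and 1 in M-type versus NR. Lmo4, a LIM-only protein that binds the LHX2 cofactor LDB1, had a level of 24328 in T-type cells against 6883 to 8256 elsewhere, and T2 was its highest cell (70222). Ncor1, a nuclear receptor corepressor, also had its highest level in T-type cells (9548 against 2269.8 to 3309). That level leaned on 1 cell, T1, which had 36671 normalized counts. Ctbp2, a corepressor bound by ZEB1, differed by under 2-fold in all 4 contrasts.

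Of 6 astrocyte genes known as targets of SOX9 or NFI factors, 5 were tested and none was 2-fold higher in any contrast. Gfap, the astrocyte intermediate filament gene, had levels of 3056 in NR, 1872 in M-type, 985 in S-type and 254 in T-type cells. T-type cells, with the highest Sox9 and Nfia levels, thus had the lowest Gfap level (log2 −3.59 against NR and −1.96 against S-type). Single cells weigh heavily in these levels. NR2 was the highest Gfap cell, with 11046 normalized counts, and T2 supplied 77.2% of the T-type Sox9 level. Fabp7 (13669 to 21179) and the glutamate transporter gene Slc1a3 (10403 to 20006) differed by under 2-fold. Zcchc24 was 2-fold below NR cells in M-type (−1.31), T-type (−1.15) and S-type cells (−1.03), a gene named after its values were seen.

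Markers of other cells moved with some of these contrasts. The summed normalized count of 10 microglial markers was 2.88 to 1284 in NR cells (median 615) and 0 to 841 in T-type cells, but at most 9.75 in S-type and 16.9 in M-type cells, and all 7 tested were 2-fold below NR in both S-type and M-type cells. Its part in the lower Sox9 and Zbtb20 values of M-type cells was not tested. Mpeg1, with the most reads of the list, had a level of 248 in NR cells and 2.54 in M-type cells. Next by reads were Cx3cr1 (845 reads) and Ptprc (524 reads). Every marker of the list except P2ry12 had its highest level in NR cells. P2ry12, which defines resting microglia and is not among the 3 with the most reads, had 2 reads in all, in T1. Sums over 12 astrocyte markers were 9303 to 117372 in NR cells (median 74502) and 13203 to 64193 in M-type cells (median 28025), with 5 of 11 tested 2-fold lower in M-type cells and none higher. The sums had a median of 40574 in S-type and 26569 in T-type cells, and against NR 6 of the 11 were 2-fold lower and none higher in S-type cells, and 5 lower and 1 higher in T-type cells. Their part in the lower Sox9 values of S-type cells and the lower Zbtb20 values of most S-type and T-type cells was not tested. The 10 neuronal markers peaked in S2 (32067, nearly all Stmn2), the cell with the lowest S-type Nfib, and the 10 oligodendrocyte lineage markers in T3 (53351, mostly Olig1). The 10 fibroblast and mural markers reached 105333 in T1, mostly Acta2 (103133), the cell with the highest Nfib, and were 3115 to 16531 in NR cells. Sums over 8 endothelial markers were at most 2499 (T5), and those over 10 radial glia and progenitor markers, mostly Vim, ran from 48457 (an NR cell) to 430508 (T2). The part of these cell differences in the values of the 10 genes was not tested.

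Some of the 10 genes overlap other transcripts, and whether strand was used in counting is not given in the sources used here. Sox2ot, the long noncoding RNA within which Sox2 lies on the same strand, had 13008 reads in 19 cells, shares no exonic base with Sox2, and had levels of 637 in M-type, 429 in T-type, 245 in S-type and 145 in NR cells, whereas Sox2 itself was lowest in M-type cells. Pax6os1, antisense to Pax6 and sharing no exonic base with it, had 1239 reads, of which 1130 were in 4 of the 5 M-type cells and none in NR cells. E130114P18Rik, antisense to Nfia with 4 shared exonic bases, had 10522 reads in 20 cells, and none in T2 or T3. Gm10125, antisense to Zeb1 with 198 shared bases or 1.9% of the exonic length of Zeb1, had 50 reads, all in 3 M-type cells. The M-type cells had 5535 Zeb1 reads.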

How the data were processed

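Single astrocytes were amplified by the antisense RNA method and sequenced from stranded libraries without molecular identifiers, so intervals cover counting error only. The deposited values are raw counts of exonic reads per gene, 1 column per cell. The study's methods name STAR and VERSE with GRCm38, and the submitters' processing notes name STAR and HTSeq, all without versions. Response types came from the labels. Size factors were medians of ratios over 3670 genes with a read in all 22 cells, a level was the mean of normalized counts, and where no cell of a type had a read the floor was 3 reads divided by the summed size factors. Intervals are 95% exact binomial (Clopper-Pearson) splits of the reads of 2 types, centred on the ratio. Genes detected in 5 or more cells entered the counts past 2-fold. Positions, exon lengths and overlaps are from GENCODE for GRCm38. Cells were numbered within a type in accession order.

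Named genes were the 10, the 3 genes with the most reads of each list, the 2 most like each of the 10, and overlapping transcripts, of which 1 list gene is not reported here. The 10 genes and all lists were chosen with earlier results of these data known. Alternatives were mean CPM, TMM factors (edgeR 4.0.16, R 4.3.3), thinning to the smallest library (2937786 reads), medians over cells, a pseudocount of 1, other filters on low counts, and leaving out each cell with the size factors kept. Leaving out T2, or T2 and T3, and the minimum of 100 normalized counts were added after the data were seen. The scripts (Python 3.11.15, numpy 2.4.6, pandas 2.3.3, scipy 1.17.1) were tested on simulated data.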

Additional observations from a re-analysis of the deposited data

Results flagged for a closer look

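In 44 groups of values (log2(normalized count + 1) of the 10 genes and the total reads, in each response type), Dixon's ratio, the gap of an extreme cell to its neighbour over the range of the group, passed its 95% critical value in 4, where chance gives about 1 in 20. The total reads gave none, and all 4 were low cells for a gene. Nfia was low in NR5 (ratio 0.763, 804 reads, 745 normalized counts), Nfib in S2 (0.722, 2716 reads, 2944 normalized counts) and in NR2 (0.843, 9988 reads, 5665 normalized counts), and Nfix in T5 (0.678, 32 reads, 20.7 normalized counts). The high cell T2 passed it for none of the genes.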

How the results depend on the processing

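The 15 ratios past 2-fold had 300 values under the alternatives, of which 292 kept their direction and 8 reversed, and 40, the reversed ones included, were under 2-fold. The 292 include values that could not differ from the main one. The filters on low counts leave every ratio as it is, and leaving out T2 and T3 changes only T-type ratios. The count of 292 is therefore no measure of how firm the ratios are. The reversed values were, without T2 and T3, Zeb1 in T-type versus S-type (−0.36) and versus NR (−0.87) and Rorb in T-type versus S-type (−0.038, the same without T2 alone), by medians over cells, Nfib in T-type versus NR (−0.36) and Zeb1 in M-type versus NR (0.047), and with 1 cell left out, Rorb in T-type versus S-type (range −0.038 without T2 to 3.26 without S4), Nfib in T-type versus NR (−0.0026 without T1 to 1.46 without T6) and Zeb1 in M-type versus NR (−1.83 without M4 to 0.093 without NR4). The cause was not tested. Of the 10 genes, those 2-fold higher in T-type versus S-type were 4, and 2 without T2 and T3 or by medians (3 to 6 leaving out a cell), and those lower were 0, but 1 by mean CPM or thinning and 3 by medians (0 to 1, with 1 without T1, T5, S2 or S5). In T-type versus NR 6 were higher, but 2 without T2 and T3, by mean CPM, by thinning and by medians (2 to 7, the lowest without T2), and 0 were lower, but 1 without T2 and T3, by mean CPM and by thinning and 2 by medians (0 to 1, with 1 without T1 or T2). In S-type versus NR 1 was higher, 2 by medians (0 to 2, 0 without S1 and 2 without NR1 or NR2), and 0 were lower, 1 by mean CPM, TMM factors or medians (0 to 2, 2 without S2 and 1 without S1, NR2, NR3 or NR4). In M-type versus NR the 4 lower genes were 3 by mean CPM and by thinning and 3 to 4 leaving out a cell, and 0 were higher, 2 by medians. The lowest counts of the 10 genes were those of Zeb1 in T5 (1 read) and Rorb in NR5 (none). Without molecular identifiers a read count does not tell how many molecules were sampled. The part of depth and amplification in these values was not tested. No paired analysis was possible because the labels give no replicate numbers.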
